A study of Homo sapiens with 2 samples.

Results

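The genes described here are 10 markers of the lung alveolus, made up of the surfactant proteins SFTPB, SFTPC and SFTPD, the lipid genes ABCA3 and LPCAT1, the phosphate transporter SLC34A2, and AQP5, HOPX, AGER and PDPN, which mark alveolar type I cells. They were chosen by name, as every probe set whose platform annotation lists one of these symbols, which gave 23 of the 54675 probe sets on the array and 10 of 19775 genes. Every one of the 23 probe sets was annotated with a single gene.

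RNA from A549 cells, an established human lung adenocarcinoma line often used as a model of alveolar type II cells, was hybridised to Affymetrix Human U133 plus 2.0 chips, with 1 chip for each culture. The spheroid culture was kept unattached for 12 days in DMEM/F12 without serum, with N2 supplement, EGF at 20 ng/ml and bFGF at 10 ng/ml. The monolayer culture was kept attached for 12 days in DMEM with 10% FBS. Attachment, serum, base medium and growth factors therefore changed together and cannot be told apart, and the study compared the cultures to look for genes that maintain stem-like and epithelial-to-mesenchymal transition features in spheroids. The cell line and protocol labels give A549, but the free description, worded alike for both samples, names Huh7, a hepatoma line, and treatment with PGG at 0 hours. The values are read here by the A549 and culture labels, on which the meaning of every ratio rests. With 1 array per culture there was no replicate, no test was run and each ratio describes these 2 arrays only. In such bulk RNA, fewer cells of a kind and less RNA per cell cannot be told apart.

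Pulmonary surfactant is a film of phospholipid, rich in dipalmitoyl phosphatidylcholine, and of specific proteins that lowers surface tension in the alveolus. Alveolar type II cells make it, store it in lamellar bodies and secrete it. Alveolar type I cells are the thin cells across which gas diffuses, and type II cells are their progenitors. A cell line of alveolar origin need not keep either programme in culture.

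The signals are linear, in arbitrary units, and their mean was 500.1 on both arrays once the 2% of probe sets at either end were set aside. The median signal was 119 on the spheroid array and 108 on the monolayer array, and these medians served as the floor below which a signal was not read as a level. Values under the floor were raised to it before a ratio of spheroid over monolayer was taken. A ratio with only 1 culture above its floor is a lower bound, given as "at least", and no ratio with a floor is given where both cultures were under it. Each gene was read from its brightest probe set by mean log2 signal. At a limit of 3-fold, 13229 genes passed the floor in 1 culture or both, of which 309 (2.34%) were higher in spheroid culture and 279 (2.11%) were lower, with a median log2 ratio of 0.04. Division of each array by its own median shifted that log2 median by -0.14 and gave counts of 249 higher and 344 lower.

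The 2 lipid genes of the set were well above the floor and higher in spheroid culture by about the same amount, SFTPB was above the floor in both cultures at low signal with a ratio that differed between its probe sets, and SFTPC and SFTPD passed the floor in spheroid culture alone. SLC34A2 and all 4 type I cell markers stayed under the floor in both cultures on each of their 11 probe sets. By gene, 3 of the 10 were above the floor in both cultures, 2 in spheroid culture alone and 5 in neither, while 33.1% of all genes were in neither. None of the 10 genes passed 3-fold in either direction, and the 5 in neither could not. Of all genes above the floor in 1 culture or both, 2.34% were higher and 2.11% lower. A count of 0 among the 5 members above a floor is near those shares. By probe set, 4 of the 23 were above the floor in both cultures, 3 in spheroid culture alone, 1 in monolayer culture alone and 15 in neither. That is 65.2% in neither, against 45.1% of all probe sets. None of the 23 was past 3-fold, and the 15 in neither could not be. Of all probe sets above a floor, 1.91% were higher and 1.5% were lower.

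**Figure D1:**
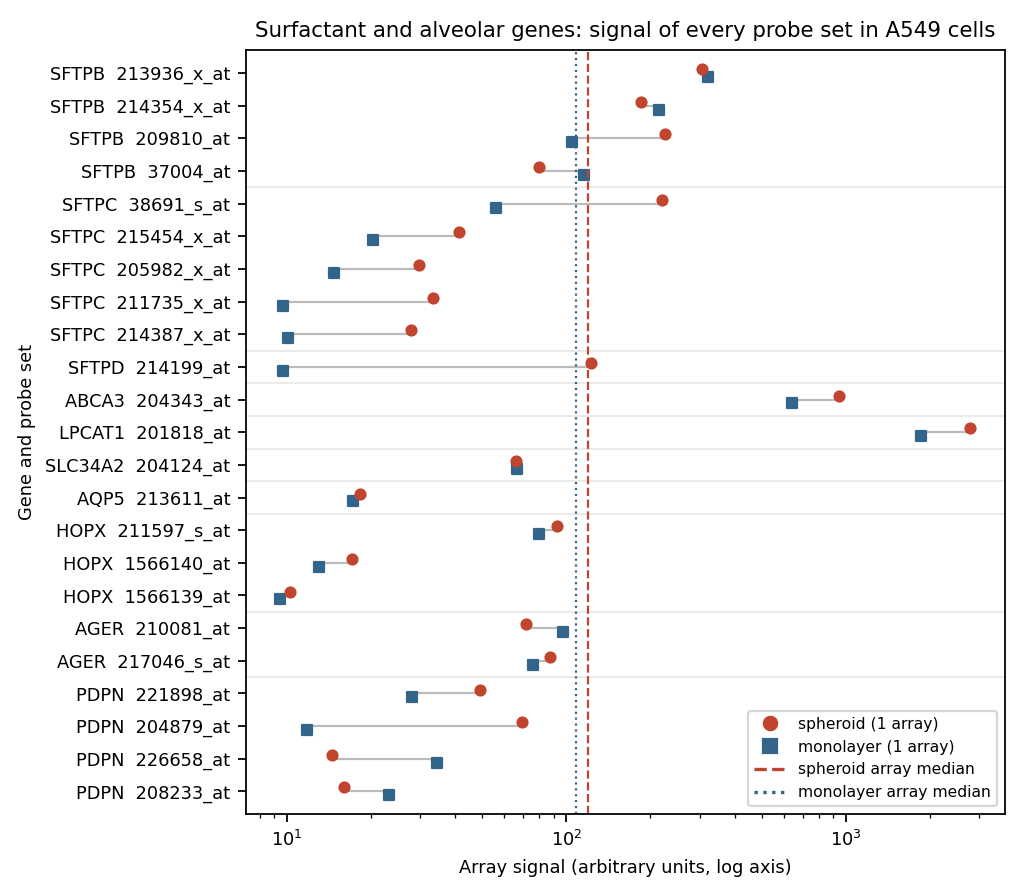
Array signal on a log axis for each of the 23 probe sets, with the spheroid array as circles, the monolayer array as squares and the 2 array medians (119 and 108) as vertical lines. ABCA3 and LPCAT1 lie far to the right of both medians, and all 11 probe sets of SLC34A2, AQP5, HOPX, AGER and PDPN lie to the left of them.

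ABCA3 and LPCAT1, the lipid genes, had the highest signals over their floors. ABCA3, the transporter that loads phospholipid into lamellar bodies, had a signal of 948 in spheroid culture and 640.0 in monolayer culture on its only probe set, 204343_at. Both values are several times the array medians, at 7.95 times the floor in spheroid culture and 5.92 times in monolayer culture. The ratio was 1.48-fold, a log2 ratio of 0.57. LPCAT1, the acyltransferase that remodels phosphatidylcholine to its disaturated surfactant form, had a signal of 2785 in spheroid culture and 1850.2 in monolayer culture on its only probe set, 201818_at. Its ratio was 1.51-fold, a log2 ratio of 0.59. These ratios are within the ordinary range of the comparison. Of 11528 genes above the floor in both cultures, 16.6% had a ratio at least as high as that of ABCA3 and 15.8% one at least as high as that of LPCAT1. The robust SD of the log2 ratios of those genes was 0.53. Over 5453 genes, the SD of the difference in log2 ratio between the 2 brightest probe sets was 0.50, so a log2 difference of 0.57 or 0.59 on 1 probe set is about as large as the disagreement between probe sets. That SD holds the scatter of 2 probe sets on the same 2 arrays. It does not measure variation between cultures, so it cannot show whether the cultures differ. Scaling each array to its median gave log2 ratios of 0.43 for ABCA3 and 0.45 for LPCAT1.

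**Figure D2:**
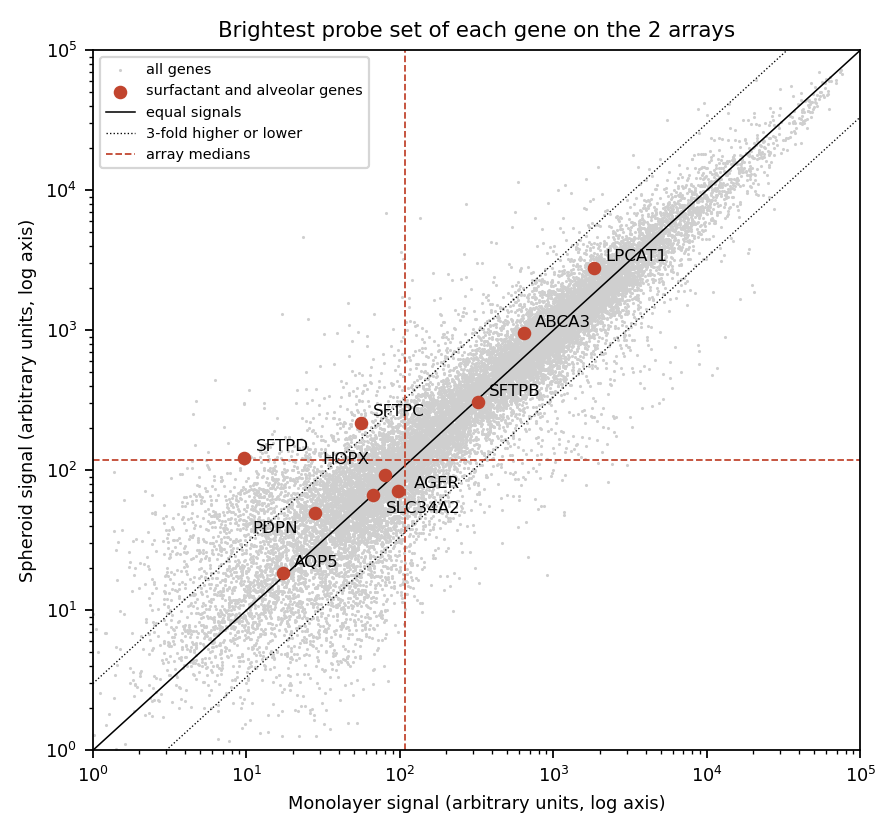
Spheroid signal against monolayer signal of the brightest probe set of each gene, both on log axes, with the 10 surfactant and alveolar genes in red, all genes in grey, the array medians dashed, equal signals as a solid line and 3-fold limits dotted. ABCA3 and LPCAT1 lie just above the line of equal signals, and SFTPC and SFTPD lie left of the monolayer median and above the spheroid median.

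The surfactant protein genes gave low signals, and the probe sets of SFTPB did not go the same way. SFTPB, the hydrophobic protein that packs and spreads the lipid film and without which lamellar bodies do not form normally, had 4 probe sets. On the brightest, 213936_x_at, the signal was 306 in spheroid culture and 321 in monolayer culture, a log2 ratio of -0.07. The next, 214354_x_at, had signals of 185 in spheroid culture and 214 in monolayer culture. On both of these probe sets the log2 ratio was smaller in size than 0.50, the SD of the difference between 2 probe sets given above. The remaining pair was annotated from the same mRNA record and went opposite ways. On 209810_at the signal was 225 in spheroid culture and 105 in monolayer culture, at least 2.08-fold higher. On 37004_at it was 79.7 in spheroid culture and 116 in monolayer culture, so that the culture above the floor was the other one. The SFTPB ratio thus turned on the probe set read, with 1 probe set higher in spheroid culture and 3 lower before any floor.

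SFTPC, the small hydrophobic surfactant protein made by type II cells alone, was under the floor in monolayer culture on all 5 probe sets. On 38691_s_at it reached 219 in spheroid culture, against 56.0 in monolayer culture, which is at least 2.03-fold higher with the floor. The other 4 probe sets, all with names ending in _x_at, were under the floor in both cultures, from 27.9 to 41.3 in spheroid culture and from 9.68 to 20.3 in monolayer culture. All 5 had the higher signal in spheroid culture, with ratios from 2.02 to 3.91 before any floor. This pattern was noticed in the values. Of 706 genes with 5 probe sets, 12.0% had all 5 higher in spheroid culture and 0.425% had all 5 at least 2-fold higher. Those genes were of any brightness and included SFTPC. The shares are therefore no like background for probe sets under the floor, and they are no support for a change in SFTPC. Ratios under the floor vary widely, since 22.0% of the 16456 probe sets with both signals under the floor were higher by 2-fold or more and 16.8% lower by 2-fold or more, and probe sets of 1 gene share its transcript. SFTPD, a collectin that binds microbial sugars and takes part in surfactant turnover, had 1 probe set, 214199_at, with a signal of 122 in spheroid culture and 9.71 in monolayer culture. The spheroid signal was 1.02 times its floor, and 50.5% of the probe sets on that array were dimmer. The ratio was at least 1.13-fold with the floor and 12.6-fold without it, and 4.68% of the 1880 probe sets above the floor in spheroid culture alone had an unfloored ratio at least as high. SFTPD and those probe sets were picked by the same rule, which fixes the direction. The SFTPD monolayer signal, at 0.0897 times its floor, was not read as a level, so the share is no support for a change. SFTPC and SFTPD thus differ from ABCA3 and LPCAT1 in that the size of their ratio is set mainly by the floor.

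SLC34A2, the sodium-phosphate cotransporter of the type II cell surface, had nearly equal signals under the floor, 66.2 in spheroid culture and 66.6 in monolayer culture. The 4 type I cell markers were all dimmer than their array's median. AQP5, the water channel of the type I cell surface, had signals of 18.3 in spheroid culture and 17.3 in monolayer culture on its only probe set, the lowest over the floor of the 5 genes read from their brightest probe sets, at 0.154 times it in spheroid culture and 0.160 times in monolayer culture. HOPX, a homeodomain protein without DNA-binding activity that acts through partners such as SRF and HDAC2, had signals of 92.3 in spheroid culture and 79.6 in monolayer culture on 211597_s_at. Its other 2 probe sets were at 10.2 and 17.1 in spheroid culture and at 9.49 and 13.0 in monolayer culture. AGER, which encodes the pattern recognition receptor RAGE and is highly expressed in type I cells, had 71.6 in spheroid culture and 97.2 in monolayer culture on 210081_at. On its other probe set, 217046_s_at, it had 87.2 in spheroid culture and 76.1 in monolayer culture, so its probe sets went opposite ways. PDPN, which encodes podoplanin, a mucin-type membrane glycoprotein of type I and lymphatic endothelial cells, had 4 probe sets with signals from 14.6 to 69.5 in spheroid culture and from 11.9 to 34.4 in monolayer culture. Of these, 204879_at had 69.5 in spheroid culture and 11.9 in monolayer culture, and 226658_at had 14.6 in spheroid culture and 34.4 in monolayer culture. The PDPN probe sets went up and down in equal number, with unfloored ratios from 0.423 to 5.86, all below the level at which a signal was read. The paper's supplementary list gives PDPN a fold change of 5.86, which equals the unfloored ratio of 204879_at.

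Around ABCA3 and LPCAT1, the enzymes of phosphatidylcholine synthesis showed no common direction, and the other ABCA transporters above the floor had ratios above 1. Of 20 genes of phosphatidylcholine synthesis and remodelling, 0 passed 3-fold in the higher direction and 0 in the lower (against 2.34% and 2.11% of all genes above the floor). Another 17 were inside the limits and 3 under the floor in both cultures. Their median log2 ratio was 0.05, against 0.04 over all genes. LPIN1, a phosphatidate phosphatase, was nearest to the limit with 2507 in spheroid culture and 884 in monolayer culture. PCYT1A, the rate-limiting CTP transferase of the pathway, had 1141 in spheroid culture and 471 in monolayer culture, 2.42-fold higher. Both genes, and the LPCAT and ABCA relatives given here by value, were named with their values in view. The other LPCAT family members were closer to equal than LPCAT1. LPCAT2 had signals of 503 in spheroid culture and 401 in monolayer culture, LPCAT3 478 in spheroid culture and 587 in monolayer culture, and LPCAT4 1512 in spheroid culture and 1487 in monolayer culture. Of 10 other ABCA transporters, 1 passed 3-fold in the higher direction and 0 in the lower, with 5 inside the limits and 4 under the floor. The shares over all genes above the floor were 2.34% and 2.11%. All 6 above the floor had the higher signal in spheroid culture, at a median log2 ratio of 0.61. Of all genes above the floor, 51.5% had the higher signal in spheroid culture, or 41.9% once signals were divided by the array medians. ABCA12 passed the floor in spheroid culture alone, so its direction was fixed by the floor. ABCA8 had 978 in spheroid culture and 203 in monolayer culture, 4.82-fold higher, on 1 probe set, with its other 2 under the floor. Its log2 ratio of 2.27 was within the limit at 1.03 with the floor at the 75th percentile and at 0.85 for the log-scale average of the probe sets. The log2 ratio of ABCA3, 0.57, lay between those of ABCA5, 0.50, and ABCA1, a cholesterol exporter, 0.73.

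Genes that process and clear surfactant went both ways. Of 15 measured genes of surfactant processing, lamellar bodies and clearance, 1 passed 3-fold in the higher direction and 0 in the lower. The shares over all genes above the floor were 2.34% and 2.11%. Another 11 were inside the limits and 3 under the floor, and the median log2 ratio was 0.09. RAB38, a small GTPase of lamellar body and lysosome-related organelle formation, had 393 in spheroid culture and 73.4 in monolayer culture, at least 3.63-fold higher, though under the floor in both cultures when that was set at the 75th percentile. NAPSA, the aspartic protease that helps to process the SFTPB precursor, had 272 in spheroid culture and 45.3 in monolayer culture, at least 2.52-fold higher. CTSH, the cysteine protease of the same processing, had 643 in spheroid culture and 1383 in monolayer culture, 2.15-fold lower. LAMP3, a lamellar body membrane protein, was under the floor in both cultures. NAPSA and CTSH did not pass the limit, and NAPSA, CTSH and LAMP3 were named after their values were seen. SFTPA1 and SFTPA2 share their probe sets and were not analysed here.

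Of 15 other markers of type II cells, 4 passed 3-fold in the higher direction and 1 in the lower (against 2.34% and 2.11% of all genes above the floor), with 6 inside the limits and 4 under the floor, and the median log2 ratio was 0.62. C4BPA, a complement inhibitor, had 712 in spheroid culture and 176 in monolayer culture, 4.03-fold higher. LRRK2, a kinase with high expression in type II cells, had 589 in spheroid culture and 185 in monolayer culture, 3.18-fold higher. DMBT1, a scavenger receptor that binds SFTPD, had 1046 in spheroid culture and 333 in monolayer culture, 3.14-fold higher. HHIP, a hedgehog inhibitor, had 477 in spheroid culture and 156 in monolayer culture, 3.06-fold higher, and its other 3 probe sets also had the higher signal in spheroid culture. It was named after its values were seen, since 3 genes were to be named. FABP5, a fatty acid carrier, had 1951 in spheroid culture and 7759 in monolayer culture, 3.98-fold lower. When each array was scaled to its median, the log2 ratios of LRRK2 (1.53), DMBT1 (1.51) and HHIP (1.48) were within 3-fold, and C4BPA was past it. With the floor at the 75th percentile of each array none of these 4 genes was past 3-fold, with log2 ratios of 0.58 for C4BPA, 0.30 for LRRK2 and 1.13 for DMBT1 and with HHIP under the floor. FABP5 was past the limit in every alternative that gave it a value. These genes are not confined to type II cells.

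Other markers of type I cells stood on both sides, with the genes past the limit all lower. Of 24 measured, 0 passed 3-fold in the higher direction and 3 in the lower (against 2.34% and 2.11% of all genes above the floor). Another 14 were inside the limits and 7 under the floor, and the median log2 ratio was -0.03. The highest ratios were those of COL4A3, with 364 in spheroid culture and 145 in monolayer culture, and MYRF, with 2511 in spheroid culture and 1008 in monolayer culture. They were 2.51-fold and 2.49-fold higher and were named after their values were seen. ANXA3, an annexin, had 965 in spheroid culture and 4940 in monolayer culture, 5.12-fold lower. CAV1, the main coat protein of caveolae, had 4311 in spheroid culture and 14739 in monolayer culture, 3.42-fold lower, and its other probe set was lower too. GPRC5A, an orphan receptor of lung epithelium, had 919 in spheroid culture and 3097 in monolayer culture, 3.37-fold lower, but its log2 ratio of -1.75 was within the limit, at -1.47, for the log-scale average of its probe sets. Unlike AQP5, HOPX, AGER and PDPN, the 3 genes past the limit had signals far above the floor in both cultures. They are also expressed by many cells outside the alveolus.

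The transcription factor that marks the lung lineage was under the floor, while FOXA2, CEBPA and ETV5 had similar signals in both cultures. NKX2-1, which activates the surfactant protein genes, had signals of 80.7 in spheroid culture and 77.3 in monolayer culture on the brighter of its 2 probe sets, and 6.28 in spheroid culture and 14.5 in monolayer culture on the other. FOXA2, a forkhead factor, had 1250.1 in spheroid culture and 1298 in monolayer culture. CEBPA, a C/EBP factor of type II cell maturation, had 566 in spheroid culture and 642 in monolayer culture. ETV5, an ETS factor that maintains type II cells in mice, had 1858 in spheroid culture and 1686 in monolayer culture, and its 4 probe sets above the floor had ratios from 0.774 to 1.26. Of these factors, then, NKX2-1 alone was dimmer than the array medians. Of 24 regulators, 1 passed 3-fold in the higher direction and 0 in the lower (against 2.34% and 2.11% of all genes above the floor). Another 21 were inside the limits and 2 under the floor, and the median log2 ratio was -0.12. Among the factors within the limit, SREBF2, a sterol-regulated activator of lipid genes, had 1270 in spheroid culture and 437 in monolayer culture, and CEBPD, a further C/EBP factor, had 2518 in spheroid culture and 5532 in monolayer culture, 2.20-fold lower. GATA6, a zinc finger factor of lung epithelium, had 124 in spheroid culture and 229 in monolayer culture, 1.84-fold lower. These 3 were named after their values were seen. SOX9, a factor of the distal tip progenitors of the developing lung, had 3989 in spheroid culture and 785 in monolayer culture, 5.08-fold higher, and its other probe set was 3.09-fold higher. HDAC2 and SRF, the named partners of HOPX, were above the floor in both cultures, with 3393 in spheroid culture and 4346 in monolayer culture for HDAC2, and 206 in spheroid culture and 259 in monolayer culture for SRF. Both were named for their link to HOPX with their values in view.

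The promoters of these genes differ in base composition, which is shown for ABCA3, LPCAT1, SFTPB and SFTPD, members that passed the floor in 1 culture or both. RefSeq sequences of the 250 bases before the gene start (GRCh38.p14) were found for 9 of the 10 genes, all but SFTPC, which also passed the floor. For each gene only the first start listed was used, and any other start was left out. The sequences below run 5′ to 3′ on the gene's strand, the minus strand for all 4, and capitals mark CpG dinucleotides. They lie at chr16:2340729-2340978 for ABCA3, chr5:1523961-1524210 for LPCAT1, chr2:85668742-85668991 for SFTPB and chr10:79949106-79949355 for SFTPD.
ABCA3: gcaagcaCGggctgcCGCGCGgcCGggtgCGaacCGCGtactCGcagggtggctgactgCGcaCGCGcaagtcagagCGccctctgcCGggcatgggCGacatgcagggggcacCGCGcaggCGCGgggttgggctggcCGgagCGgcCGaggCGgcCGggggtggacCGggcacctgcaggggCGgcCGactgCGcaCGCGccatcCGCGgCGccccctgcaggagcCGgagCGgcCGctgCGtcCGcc
LPCAT1: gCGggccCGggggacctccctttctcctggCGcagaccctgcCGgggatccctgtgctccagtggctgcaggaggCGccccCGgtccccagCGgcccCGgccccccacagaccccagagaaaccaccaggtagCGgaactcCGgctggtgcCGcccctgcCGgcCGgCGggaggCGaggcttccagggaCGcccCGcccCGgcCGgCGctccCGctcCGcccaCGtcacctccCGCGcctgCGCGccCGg
SFTPB: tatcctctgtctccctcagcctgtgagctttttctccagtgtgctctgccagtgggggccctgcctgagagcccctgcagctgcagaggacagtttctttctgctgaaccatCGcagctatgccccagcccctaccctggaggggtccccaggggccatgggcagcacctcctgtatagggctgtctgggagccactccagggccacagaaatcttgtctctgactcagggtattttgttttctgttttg
SFTPD: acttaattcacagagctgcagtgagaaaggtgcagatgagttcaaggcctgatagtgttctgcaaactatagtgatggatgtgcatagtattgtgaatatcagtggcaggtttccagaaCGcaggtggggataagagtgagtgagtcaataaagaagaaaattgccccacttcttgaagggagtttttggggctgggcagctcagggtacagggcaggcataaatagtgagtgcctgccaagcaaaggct
The ABCA3 window holds 38 CpG and the LPCAT1 window 28, while those of SFTPB and SFTPD hold 1 each, against a median of 11 over 35116 promoters. Counts of 38 or more CpG were found in 3.28% of all promoters and of 28 or more in 15.9%, and 14.7% of promoters held at most 1. A high CpG count did not go with signal over the whole set, since AQP5, with 41 CpG, and SLC34A2, with 33, were under the floor in both cultures. PDPN held 14, HOPX 9 and AGER 3. CpG were counted after the sequences were seen.

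Motifs of the factors above were searched on both strands of the same windows. The letters were TCAAG for NKX2-1 (found in 29.2% of all promoters), TGTTTG (12.8%) and TGTTTA (11.0%) for FOXA factors, TTGCNNAA for C/EBP (9.05%), where N is any base, and TCACNCCAC for SREBP (0.883%). The ABCA3, LPCAT1, SFTPB and AQP5 windows held none of these letters. Other starts and bases beyond the window were not searched, so this does not show that the promoters of these genes lack such sites. The SFTPD window held TCAAG at 209 to 205 bases before the start, its reverse complement at 78 to 74 bases, and a C/EBP match, TTCTGCAA, at 193 to 186 bases. SLC34A2 held 1 C/EBP match, the palindrome TTGCGCAA, at 47 to 40 bases before the start, which counts once on each strand. HOPX and PDPN each held the reverse complement of TGTTTG, and AGER held the SREBP letters. No 2 matches in a window overlapped apart from the palindrome. A match of letters does not show that a factor binds.

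Relatives and partners of the genes under the floor were in part above it. Of 13 measured genes of phosphate, water and sodium transport, 2 passed 3-fold in the higher direction and 0 in the lower. The shares over all genes above the floor were 2.34% and 2.11%. Another 6 were inside the limits and 5 under the floor, and the median log2 ratio was 0.29. AQP3, an aquaglyceroporin of airway and other epithelia, had 38012 in spheroid culture and 8732 in monolayer culture, 4.35-fold higher, with its other 2 probe sets 5.73-fold and 3.79-fold higher. AQP1 and AQP4, like AQP5, were under the floor in both cultures. SLC20A1, a widely expressed phosphate transporter, had 14236 in spheroid culture and 4178 in monolayer culture, 3.41-fold higher, and its other probe set was 3.87-fold higher. In contrast to SLC34A2, the related SLC34A3 was above the floor in both cultures, with 605 in spheroid culture and 478 in monolayer culture. AQP1, AQP4 and SLC34A3 were named as relatives of the members after their values were seen.

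While the AGER probe sets were under the floor, ligands of RAGE were in part above it. Of 10 ligands, sheddases and adaptors of RAGE, 2 passed 3-fold in the higher direction and 0 in the lower. The shares over all genes above the floor were 2.34% and 2.11%. Another 6 were inside the limits and 2 under the floor, and the median log2 ratio was 0.37. The 2 under the floor were the ligands S100A12 and S100B, while HMGB1, a nuclear protein that is a ligand once released, had 11813 in spheroid culture and 20533 in monolayer culture. These 3 genes were named after their values were seen. S100A9, a subunit of calprotectin, had 2534 in spheroid culture and 205 in monolayer culture, 12.3-fold higher. S100A8, the other subunit, had 353 in spheroid culture and 46.8 in monolayer culture, at least 3.26-fold higher on 1 of its 2 probe sets, and its log2 ratio was within 3-fold after division by the array medians (1.57) and for the log-scale average of its probe sets (0.92). Of 9 partners of podoplanin, 0 were past the limit in either direction, 7 lay between and 2 were under the floor, and the median log2 ratio was -0.02. CLEC1B, the platelet receptor of podoplanin, was under the floor with 13.9 in spheroid culture and 59.1 in monolayer culture, and it was named after its values were seen. Of 4 other collectins measured, 1 was above the floor, in monolayer culture alone, and 3 were in neither.

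The cell type was checked with marker genes. All 6 markers of simple epithelia were above the floor in both cultures, with summed signals of 68679 in spheroid culture and 104424 in monolayer culture. KRT19 was 4.64-fold higher and KRT7 3.75-fold lower on their brightest probe sets, and neither call held in every alternative. The log2 ratio of KRT19 was 1.18 for the log-scale average of its probe sets and 0.90 for a floor at the 75th percentile, and that of KRT7 was -0.45 for the average and -0.11 without _s_at and _x_at probe sets. Of 3 genes in the region around CDKN2A that A549 cells are known to lack, CDKN2B was under the floor on both of its probe sets. CDKN2A was under the floor on all of its 3 probe sets but 1, which had 251 in spheroid culture and 85.9 in monolayer culture, and MTAP had 511 in spheroid culture and 471 in monolayer culture on its brightest probe set, with 4 of its 6 under the floor in both. Of 13 hepatocyte markers, which bear on the Huh7 description, 3 were at least 3-fold higher (against 2.34% of all genes above the floor). These were ALB (albumin), at least 42.9-fold higher, APOH (apolipoprotein H), 8.85-fold higher, and SERPINA1 (alpha-1 antitrypsin), at least 5.02-fold higher. TTR, TF and APOA2 were under the floor in both cultures. The SERPINA1 probe set above both floors was 1.32-fold higher, and its log2 ratio was 0.41 without _s_at and _x_at probe sets, 1.30 for the log-scale average and 0.18 for a floor at the 75th percentile, all within the limit. ALB and APOH were under the floor in both cultures without the _s_at and _x_at probe sets. The other 7 lay within the limit and were named after their values were seen. CPS1 had 9462 in spheroid culture and 13236.5 in monolayer culture. In the same order, FGB had 1179 and 767, FGA 816 and 757, and AHSG 348 and 120. AFP had 263 and 106, at least 2.43-fold higher, and APOA1 and APOB had low signals in both cultures. The summed hepatocyte signal was 25874 in spheroid culture and 16547 in monolayer culture, and CPS1 made up most of the monolayer sum.

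Of 7 airway cell markers, 2 were at least 3-fold higher and 5 were under the floor, with summed signals of 1006 in spheroid culture and 252 in monolayer culture. This count and those of the cell types below are read against 2.34% higher and 2.11% lower over all genes above the floor. The 2 airway markers past the limit were BPIFA1 and BPIFB1, secreted proteins of the airway, at least 4.33-fold and at least 3.43-fold higher. SCGB1A1, SCGB3A1 and SCGB3A2, which define club and other secretory cells, FOXJ1 of ciliated cells and KRT5 of basal cells were under the floor in both cultures. Of 6 endothelial and lymphatic markers, 3 were above the floor and 0 past the limit, with summed signals of 741 in spheroid culture and 533 in monolayer culture. PECAM1 had 475 in spheroid culture and 270 in monolayer culture, 1.76-fold higher, on the brightest of its 5 probe sets. The paper's supplementary list gives PECAM1 a far larger fold change, and its other probe sets are not given here. PROX1 passed the floor in spheroid culture alone, at 119, and FLT4 in monolayer culture alone, at 166. VWF, CDH5 and LYVE1 were under the floor. Of 3 leukocyte markers, CD14 was at least 3.66-fold lower and PTPRC and LYZ were under the floor, with summed signals of 167 in spheroid culture and 515 in monolayer culture. Of 6 fibroblast markers, 2 were above the floor and 0 past the limit, with summed signals of 962 in spheroid culture and 1277 in monolayer culture. The part of these markers in the signals of the surfactant and alveolar genes was not tested.

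**Figure D3:**
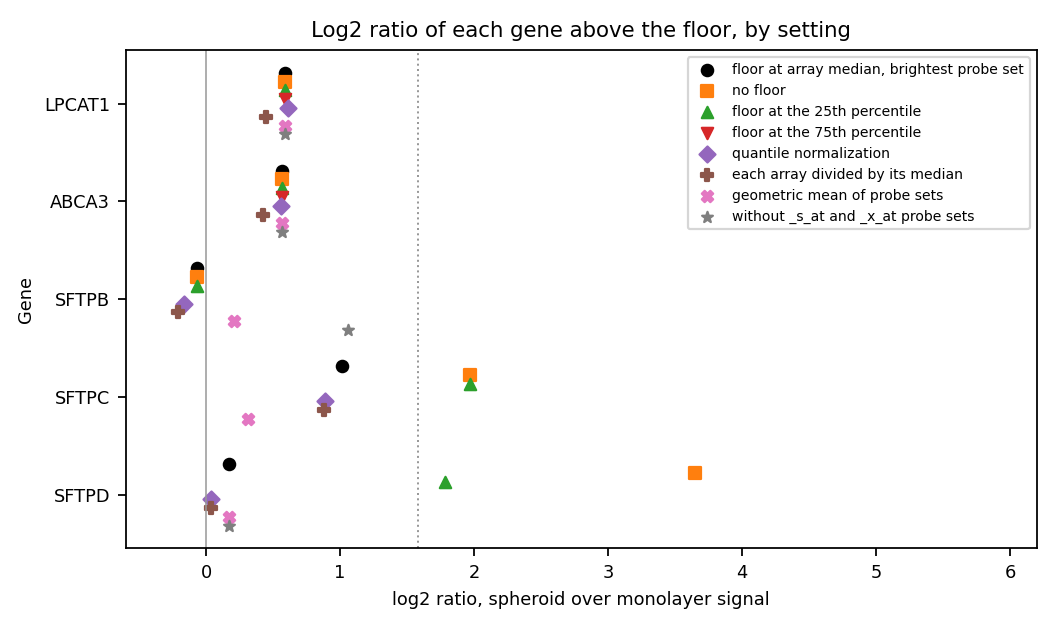
Log2 ratios (spheroid over monolayer) of the 5 genes that passed the floor in 1 culture or both, each symbol being 1 setting of floor, normalization or probe set and the dotted line 3-fold higher. ABCA3 and LPCAT1 keep within 0.43 to 0.62 in every setting plotted, while SFTPC and SFTPD move with the floor and SFTPB with the probe sets.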

How the data were processed

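Array signals of 2 samples were analysed, 1 spheroid and 1 monolayer culture, mapped by title. The intensity values deposited by the authors are linear probe set signals. MAS5 and GCOS are the tools named in the submitters' processing notes, in versions not given in the sources used here, and the values had been scaled to 1 trimmed mean, so that a shift of all genes between the arrays cannot be seen. No further scaling was applied. Genes came from the platform annotation, with current symbols found through Entrez numbers for 41043 of the 41097 single-gene probe sets. Of the others, 1801 had several genes and 11777 had none. The 62 control probe sets were left out of the medians.

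The members and 17 gene lists were chosen with earlier results of these data known. Besides the members, up to 3 genes per list and direction past 3-fold and NKX2-1, FOXA2, CEBPA and ETV5 were named, with exceptions stated. With 2 arrays any 2 genes correlate perfectly, so none was named for likeness. Alternatives changed the floor, normalization, probe set and limit. The steps were tested on simulated data, with large changes put only into genes far above the floor. That test does not bear on signals near or under the floor. Python 3.11.15, numpy 2.4.6, pandas 2.3.3 and matplotlib 3.10.9 were used. The number of arrays limits the precision.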

Additional observations from a re-analysis of the deposited data

How the results depend on the processing

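The count of surfactant and alveolar genes at least 3-fold higher was 0 with the floor at the array medians, 2 with no floor and 2 with a floor at the 25th percentile, these being SFTPC and SFTPD. It was 1 at a limit of 2-fold. The count of their probe sets past the limit was 0, against 4 with no floor, 2 with the lower floor and 2 at a limit of 2-fold. None of the alternatives put a gene or probe set past the limit in the lower direction, and the median log2 ratio of the members, 0.57, lay between 0.32 and 0.58 under all of them. The log2 ratio of SFTPB was -0.07, but 0.21 when its probe sets were averaged on the log scale and 1.06 when the _s_at and _x_at probe sets were dropped. That of SFTPC was 1.02, with 1.97 without a floor and 0.32 for the log-scale average, and that of SFTPD was 0.17, with 3.65 without a floor and 1.78 with the lower floor. With a floor at the 75th percentile 8 of the 10 genes were under it in both cultures, and with one at the 25th percentile only AQP5 was. Over all genes, the counts of 309 higher and 279 lower became 1312 and 1014 without a floor, 558 and 421 for the 25th percentile, 109 and 150 for the 75th, 205 and 191 for log-scale averages, 908 and 728 at a limit of 2-fold and 103 and 126 at 5-fold. Of 23 genes outside the set named for passing 3-fold, 7 passed it under every alternative floor, normalization and probe set choice that left them a probe set (ANXA3, AQP3, CAV1, FABP5, S100A9, SLC20A1 and SOX9), and 16 fell within it or under the floor in 1 alternative or more, among them BPIFA1, BPIFB1 and CD14 with the floor at the 75th percentile. No paired analysis was possible because each culture had 1 array, and for the same reason no replicate could be left out. Signals near the floor limit every statement on SFTPB, SFTPC and SFTPD. Genes that A549 cells are known to lack also gave signals above the floor. MTAP had 511 in spheroid culture and 471 in monolayer culture on its brightest probe set, more than SFTPB on any of its own. CDKN2A had 251 in spheroid culture, more than SFTPC or SFTPD. Whether signals of this size show a transcript was not tested.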
